A study of Mus musculus with 13 samples.

Results

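The genes described here encode the membrane carriers that move amino acids and amino acid transmitters into and out of brain cells. They were taken by symbol from the solute carrier families Slc1, Slc3, Slc6, Slc7 and Slc38, which gave 56 genes of the 21885 protein-coding genes and the 37785 genes of all kinds that were counted. Of these genes 7 belong to Slc1, 2 to Slc3, 21 to Slc6, 15 to Slc7 and 11 to Slc38. They were measured by total RNA sequencing of oligodendrocyte precursor cells (OPCs, the glial progenitors that give rise to myelinating cells) enriched from the brain with magnetic beads against PDGFRα. All samples came from untreated wild-type mice of strain C57BL/6, at embryonic day 16 (E16, 3 libraries), postnatal day 12 (P12, 3 libraries), P80 (3 libraries, 80 to 81 days by the age field) and P310 (4 libraries, a few days younger by the age field). Beads that remove myelin were used in the preparation at P80 and P310 only, so that step and adult age cannot be told apart.

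Slc1 carriers clear glutamate from the extracellular space, chiefly into astrocytes, or exchange small neutral amino acids. Slc6 carriers use the sodium and chloride gradients to take up GABA, glycine, monoamines, taurine, creatine, proline and other neutral amino acids. Slc7 light chains need an Slc3 heavy chain to reach the membrane, where the pairs exchange large neutral amino acids or cystine against glutamate, while the cationic members of Slc7 work alone and carry arginine and lysine. Slc38 carriers move glutamine, alanine and asparagine, and some of them act at the lysosome. At the blood-brain barrier, endothelial cells carry several of the same proteins, and astrocytes, neurons and OPCs each carry others.

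The libraries held from 8669521 to 25810455 counts each. The labels number P12 replicates 2 and 3 as separate mice. Their counts differed by somewhat more than sampling noise, but by far less than those of any other pair of libraries of 1 age. They were therefore summed into 1 sample, called P12 replicate 2-3, so 12 samples with 2 at P12 entered the tests. Values are CPM, counts relative to a library total scaled by TMM, and changes are on the log2 scale with their standard error (SE). A gene was called when its adjusted p from edgeR's quasi-likelihood test was under 0.05, over 21170 genes tested. The p-values and SDs measure the spread between these samples, and the labels do not say whether an E16 library came from 1 embryo or several.

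The sort did not leave OPCs alone, and the mixture changed with age. The summed level of 10 OPC markers was 347 to 406 CPM at E16, 519 to 581 at P12, 213 to 280 at P80 and 147 to 277 at P310. Ptprz1, which radial glia also express, made up 315 ± 28.3 CPM of this at E16 and 45.1 ± 19.7 at P310, and the other 9 OPC markers summed to 62.9 to 84.2 CPM at E16, 267 to 274 at P12, 146 to 203 at P80 and 102 to 246 at P310. Of the 10, only Cspg4 and Gpr17 were called higher from E16 to P12, and Ptprz1 fell from P12 to P80. Pdgfra, Olig1, Olig2 and Sox10 were not called from E16 to P12 (adjusted p = 0.242, 0.231, 0.456 and 0.113). The sum of 10 endothelial markers was 44.2 to 68.6 CPM at E16 and 3854 to 5017 at P12, stayed between 3661 and 6805 at the adult ages, and all 10 rose from E16 to P12. The sum of 10 astrocyte markers was 204 to 215 CPM at E16 and 1294 to 1518 at P12, with 9 of 10 called higher, then 837 to 1127 at P80 and 557 to 816 at P310. The sum of 10 immature neuron markers fell from 5971 to 7128 CPM at E16 to 247 to 267 at P12, with all 10 called lower. Mature oligodendrocyte markers summed to 61.3 to 80.1 CPM at E16, and 6 of 10 were called higher from E16 to P12. Their sum was 8235 CPM in P12 replicate 1 against 428 in P12 replicate 2-3. It was 67510 CPM in P310 replicate 2 against 442 to 918 in the other P310 samples. No marker of these lists was at 0 throughout an age. Among the further lists, the ependymal Tmem212 had no count at E16 and the erythroid Hba-x none at the adult ages. In the same lists, 8 of 10 mural and 6 of 10 fibroblast and meningeal markers also rose from E16 to P12. So did 8 of 10 microglial and 8 of 10 ependymal and choroid plexus markers. In that step 3 of 10 mature neuron markers fell, and of 8 erythroid markers 2 fell. The 3 neuron markers were Slc17a6, Gad1 and Gad2, which are described again with the related lists below. In bulk samples of this kind, fewer cells of a type and less RNA per cell cannot be told apart.

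Promoter windows are shown for 4 members on which the results below turn, each from 250 bases before to 50 bases after the start, read 5′ to 3′ on the gene's strand from RefSeq on GRCm38.p6. Slc7a11 (the cystine carrier) and Slc1a4 (a carrier of serine, alanine and threonine) hold the C/EBP-ATF response element, searched as TGATGNAAN on both strands. The listed Slc7a1 window (of the arginine and lysine carrier) holds the antioxidant response element, searched as TGACNNNGC on both strands. Slc38a5, a glutamine carrier and the member with the largest change, holds neither. Capitals mark the matches.
Slc7a11, chr3:50443564-50443863, minus strand: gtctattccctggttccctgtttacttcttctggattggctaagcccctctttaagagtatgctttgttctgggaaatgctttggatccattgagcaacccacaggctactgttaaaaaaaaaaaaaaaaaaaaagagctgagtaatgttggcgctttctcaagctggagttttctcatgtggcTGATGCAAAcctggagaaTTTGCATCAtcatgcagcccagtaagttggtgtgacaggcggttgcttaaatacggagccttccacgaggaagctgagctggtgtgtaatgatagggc
Slc1a4, chr11:20332664-20332963, minus strand: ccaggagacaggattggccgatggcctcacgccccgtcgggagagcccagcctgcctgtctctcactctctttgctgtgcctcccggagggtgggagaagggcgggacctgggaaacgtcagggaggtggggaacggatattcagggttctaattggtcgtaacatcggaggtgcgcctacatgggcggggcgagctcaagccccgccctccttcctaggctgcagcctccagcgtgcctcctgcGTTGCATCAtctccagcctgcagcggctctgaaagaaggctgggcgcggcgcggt
Slc7a1, chr5:148399855-148400154, minus strand: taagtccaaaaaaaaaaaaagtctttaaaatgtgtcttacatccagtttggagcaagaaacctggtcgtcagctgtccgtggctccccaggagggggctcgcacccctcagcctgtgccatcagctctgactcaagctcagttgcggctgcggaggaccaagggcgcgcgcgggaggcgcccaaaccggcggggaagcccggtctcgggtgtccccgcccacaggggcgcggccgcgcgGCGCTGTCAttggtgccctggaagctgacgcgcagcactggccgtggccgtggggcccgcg
Slc38a5, chrX:8271131-8271430, plus strand: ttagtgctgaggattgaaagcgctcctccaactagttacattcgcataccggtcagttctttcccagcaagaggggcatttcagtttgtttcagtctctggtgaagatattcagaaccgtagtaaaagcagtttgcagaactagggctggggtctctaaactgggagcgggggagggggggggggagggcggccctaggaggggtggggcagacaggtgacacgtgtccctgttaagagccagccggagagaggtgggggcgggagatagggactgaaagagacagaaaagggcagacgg
The pair of matches in Slc7a11 begins 66 and 48 bases before the start and faces in opposite directions, and the match in Slc1a4 begins 5 bases and that in Slc7a1 11 bases before it. A window was found for 40 of the 56 members. The C/EBP-ATF element is in 3.95% of all 32851 windows, and at least 1 window holds it for 4.5% of all 27025 genes and for 4 of the 40 members, Slc1a4, Slc6a21, Slc7a7 and Slc7a11. The antioxidant element is in 12.4% of all windows, and at least 1 window holds it for 14% of all genes and for 7 of the 40 members (17.5%), Slc7a1, Slc7a6, Slc6a9, Slc6a11, Slc6a13, Slc6a16 and Slc38a2. The matches are descriptions of letters, and binding was not measured. The 2 motifs do not overlap in the windows shown.

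From E16 to P12 the transporters shifted to a set led by glutamate, taurine and large neutral amino acid carriers. Of the 56 genes 46 passed the filter on low counts, and 17 of them rose and 4 fell, beside 16.7% of all 21170 genes called higher and 10.5% called lower. The median log2 change was 1.38 over the 46 genes and 0.09 over all genes tested. Summed over all 56 genes, the E16 level was 1446 ± 96.8 CPM (SD, n = 3). It was 6284 ± 516 CPM (n = 2) at P12, 4019 ± 233 (n = 3) at P80 and 3537 ± 529 (n = 4) at P310. The largest part of that sum came from Slc38a1 at E16 (17.4%), from Slc1a2 at P12 (24.0%) and from Slc6a6 at P80 (25.7%) and P310 (39.9%). Per kb of exon, the highest level at E16 was that of Slc38a2 at 17.6 ± 1.33 CPM per kb, and at P12 that of Slc7a5 at 223 CPM per kb, followed by Slc1a2 at 115 and Slc6a6 at 109. At P80 and P310 Slc6a6 stood first, with 122 and 167 CPM per kb.

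**Figure D1:**
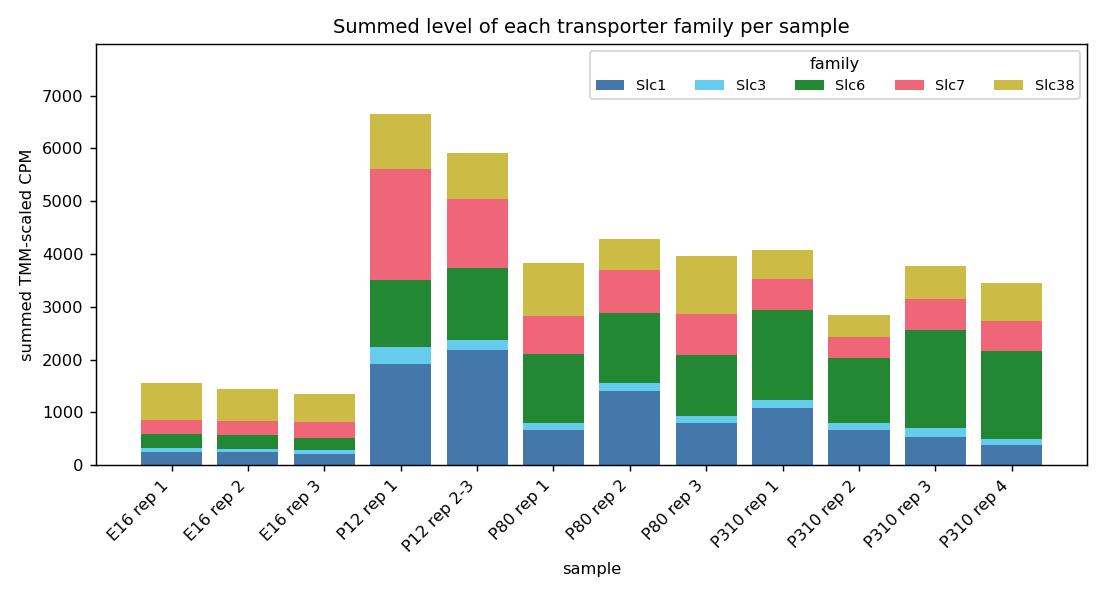
Summed TMM-scaled CPM of the members of each Slc family (stacked bars, y axis) in each of the 12 samples (x axis). The whole bar lies between 1355 and 1547 CPM at E16 and between 5919 and 6649 at P12, and the Slc6 part has its highest mean at P310, where it spans 1232 to 1868 CPM.

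Both astrocytic glutamate carriers rose from E16 to P12. Slc1a2, which clears most glutamate in the mature forebrain, had 124, 89.2 and 84.5 CPM in the E16 samples and 1373 and 1640 at P12. It had 472, 1047 and 556 CPM at P80 and 836, 510, 380 and 248 at P310. Every postnatal sample lay above every E16 sample, and P12 lay above all adult samples. The rise from E16 to P12 was 3.93 ± 0.46 (SE, adjusted p = 2.36e-05), and the step from P12 to P80 was not called (-1.12 ± 0.43, adjusted p = 0.359).

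Slc1a3 (GLAST), the carrier of radial glia and astrocytes, had 76.6, 105 and 70.5 CPM at E16 and 386 and 436 at P12. It had 120, 275 and 170 CPM at P80 and 187, 104, 92.8 and 73.2 at P310. It rose by 2.29 ± 0.38 from E16 to P12 (adjusted p = 4.16e-04), and its P310 samples overlapped those of E16. Per kb, the ratio of Slc1a2 to Slc1a3 within a sample was 0.554 to 1.05 at E16, 2.31 to 2.45 at P12, 2.12 to 2.56 at P80 and 2.21 to 3.18 at P310. Slc1a3 was thus the higher of the pair in 2 of 3 E16 samples and Slc1a2 in every postnatal sample, and the postnatal ratios did not overlap the E16 ones. Both levels and the astrocyte marker sum given above rose from E16 to P12 and had lower means at P80 and P310. At P310 Slc1a3 overlapped E16, and so did the astrocyte marker Gja1, with 58.1 to 88.0 CPM at E16 and 28.7 to 107 at P310. The astrocyte sum, 557 to 816 CPM at P310, lay above the 204 to 215 of E16. Without Gja1, the other 9 astrocyte markers summed to 126 to 146 CPM at E16 and 529 to 742 at P310. The part of the number of astrocytes in these levels was not tested. Within an age the samples did not keep 1 order: P80 replicate 2 was highest in both genes and in the astrocyte sum (1127 CPM), but P80 replicate 3 had the lowest sum (837 CPM) with more of both genes than replicate 1 (961 CPM). At P310, replicate 3 had the highest astrocyte sum, 816 CPM, and replicate 2 the lowest, 557 CPM, with less Slc1a2 in the former than in the latter.

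Slc1a1, the neuronal glutamate and cysteine carrier, was not called in any step but was called over all ages (adjusted p = 0.00276), with 16.7 ± 2.81 CPM in the 3 samples of E16, 28.1 ± 12.2 in the 2 of P12, 50.7 ± 9.37 in the 3 of P80 and 35.9 ± 5.46 in the 4 of P310. Its exons share 42.6% of their bases with a gene on the opposite strand, 4430402I18Rik, and the counting did not use strand. Slc1a6, the Purkinje cell carrier, stayed between 0 and 1.87 CPM in all samples, and Slc1a7, the retinal one, between 0 and 0.68.

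Of the 2 neutral exchangers of Slc1, 1 rose and then fell, as did Slc7a1 and Slc7a5 described below. Slc1a4, which passes serine between astrocytes and neurons, had 24.8, 27.9 and 26.6 CPM at E16, 113 and 71.8 at P12, 15.8, 22.9 and 6.05 at P80, and 12.1, 7.37, 7.67 and 6.46 at P310. The P12 samples lay above all others, and all adult samples lay below all E16 samples. It rose by 1.81 ± 0.43 from E16 to P12 (adjusted p = 0.00577) and fell by 2.64 ± 0.44 from P12 to P80 (adjusted p = 0.00625). Both calls ended without P12 replicate 1, at 1.44 and an adjusted p of 0.0802 for the rise and at -2.28 and 0.113 for the fall. Its relative Slc1a5 ranged from 4.1 to 11.6 CPM over all samples and was not called.

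Of the 4 GABA and betaine carriers, 1 rose from E16 to P12. Slc6a11, the astrocytic GABA carrier, had 3.96, 5.49 and 5.01 CPM at E16 and 104 and 166 at P12, and rose by 4.80 ± 0.64 (adjusted p = 1.17e-04). It had 24.5, 60.8 and 23.4 CPM at P80 and 56, 37.2, 18.6 and 11 at P310, all of them above E16 and below P12.

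The betaine carrier Slc6a12 and the GABA and taurine carrier Slc6a13, which lie 5.34 kb apart, were not called in any step. Slc6a12 had 9.63 and 4.73 CPM in P310 replicates 1 and 2 against 0.446 and 0.51 in replicates 3 and 4. Slc6a13 had 19.3 CPM in P310 replicate 1 and 1.16 to 3.19 in the other P310 samples.

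Of the glycine carriers, Slc6a9, which glia use to clear glycine, had 11, 11.4 and 5.48 CPM at E16, 25.1 and 29.6 at P12, 17.4, 15.4 and 13.6 at P80, and 18.3, 23.9, 9.72 and 9.95 at P310. The E16 and P12 samples did not overlap, and the P310 samples reached from the E16 range to above P80 but stayed below P12. The rise of 1.56 ± 0.44 (adjusted p = 0.0158) was lost without E16 replicate 3 (1.29, adjusted p = 0.0637) and without P12 replicate 2-3 (1.43, adjusted p = 0.0989). Its exons share 27.8% of their bases with Ccdc24 on the opposite strand. Slc6a5, the carrier of glycinergic neurons, ranged from 0.684 to 9.9 CPM and was not called.

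Taurine and creatine uptake was led by 1 gene. Slc6a6, the taurine carrier, which brain endothelium and other brain cells express, had 87.8, 81.2 and 81.1 CPM at E16 and 969 and 874 at P12. It had 1106, 1055 and 931 CPM at P80 and 1406, 1017, 1696 and 1528 at P310. The E16 samples lay far below all others, while the postnatal ages overlapped their neighbours. The rise from E16 to P12 was 3.47 ± 0.23 (adjusted p = 6.46e-08), and the later changes were 0.16 ± 0.23 and 0.45 ± 0.19, not called (adjusted p = 0.925 and 0.871).

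Slc6a8, the creatine carrier, was between 21.1 and 37.7 CPM in all samples and was not called. Per kb, the ratio of Slc6a6 to Slc6a8 was 1.85 to 1.91 at E16, 15.7 to 15.8 at P12, 20.8 to 30.8 at P80 and 20.4 to 36.7 at P310. The endothelial marker sum given above was likewise low at E16 and high at all later ages, and its part in the rise of Slc6a6 was not tested.

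**Figure D2:**
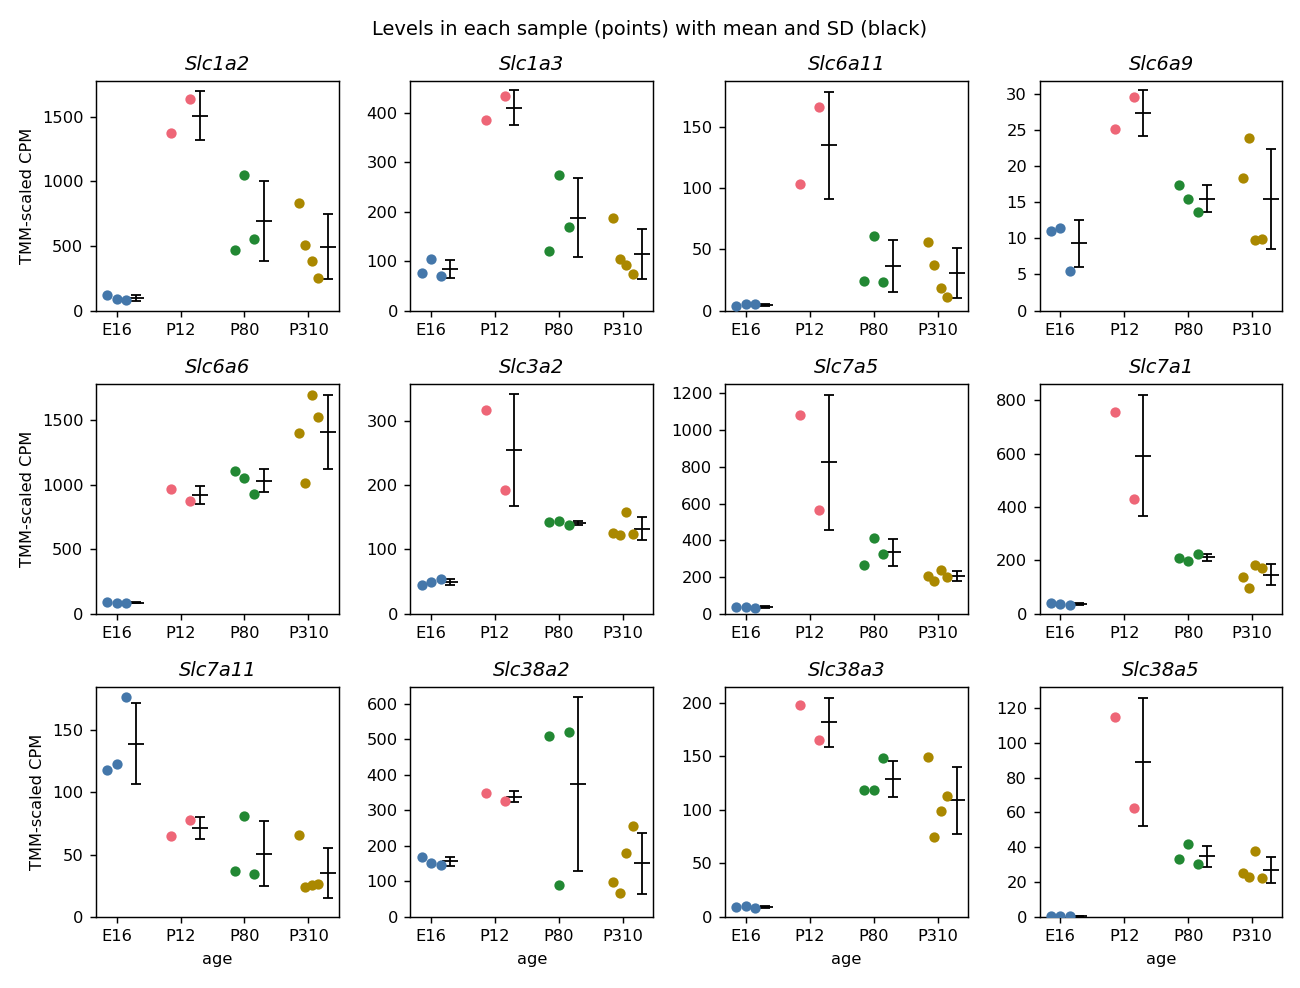
TMM-scaled CPM (y axis, linear, from 0, with its own scale in each panel) of 12 transporter genes at 4 ages (x axis); coloured points are samples and black marks are the mean with the SD. Slc6a6 stays at or above 874 CPM in all postnatal samples, Slc1a2 is highest at P12 with 1373 and 1640 CPM, and Slc7a11 has its 3 highest values, 118 to 176 CPM, at E16.

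The monoamine carriers were at or near 0 in most samples. The noradrenaline carrier Slc6a2 reached at most 1.27 CPM and the dopamine carrier Slc6a3 at most 0.267. The serotonin carrier Slc6a4 had 4.1 and 7.22 CPM in P310 replicates 3 and 4 and 0 in replicates 1 and 2, and was at most 0.38 in all samples of the other ages. Slc6a4 was called over all ages (adjusted p = 0.0408) but not from P80 to P310 (adjusted p = 0.871), and those 2 samples carry its level.

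Among the 9 proline and neutral amino acid carriers of Slc6, 2 rose and 1 fell from E16 to P12. Slc6a20a, a carrier of proline and other imino acids, went from 1.9 ± 0.677 CPM (n = 3) to 15.1 ± 4.46 (n = 2), a rise of 2.99 ± 0.49 (adjusted p = 3.01e-04), and stayed at 15.7 ± 4.83 at P80 and 16.6 ± 6.98 at P310. Its neighbour Slc6a20b, 2.21 kb away, had 9.36 ± 2.15 CPM at E16 and 15.6 ± 0.397 at P12 and was not called (adjusted p = 0.2). As neighbouring copies they can share reads, since reads that map to several places were counted for each, and exons of Slc6a20a and Slc6a20b share 14.3% and 21.1% of their bases with other genes. Slc6a15, a neuronal carrier of branched-chain amino acids and proline, fell against this group from 22.4 ± 2.39 CPM to 4.46 ± 2.41, by 2.34 ± 0.63 (adjusted p = 0.0128), and was at most 2.67 CPM in every adult sample. That call ended without P12 replicate 2-3 (-1.86, adjusted p = 0.142). The immature neuron markers fell in the same step, and their part in this change was not tested.

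Slc6a19, known from kidney and gut, had no count in the E16 samples. Its level of 0.657 ± 0.479 CPM at P12 was at least 10.4-fold higher than a floor of 3 counts over E16. Its call (adjusted p = 0.0437) ended under 10 alternatives, with adjusted p from 0.0501 to 0.143. Slc6a17, a vesicular carrier of neurons, stayed between 25.7 and 58.2 CPM with no call. Slc6a18 was at most 1.45 CPM. The proline carrier Slc6a7 ranged from 0.124 CPM in P12 replicate 1 to 11.5 in P12 replicate 2-3 and 15.4 in P310 replicate 2. Slc6a14 and Slc6a16, of the proline and neutral amino acid carriers, did not pass the filter and reached at most 2.16 and 0.648 CPM. Neither did Slc6a21, for which no role is given here and which reached at most 0.535 CPM.

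Among the heterodimeric exchangers, both heavy chains and 4 of 7 tested light chains were called from E16 to P12. Slc3a2, the heavy chain that anchors most light chains of the brain, had 44.8, 48.8 and 54.5 CPM at E16, 317 and 193 at P12, 144, 144 and 138 at P80, and 125, 123, 158 and 124 at P310. All postnatal samples lay above E16, and the P12 samples lay above the adult ones. It rose by 2.37 ± 0.23 (adjusted p = 2.08e-06). The other heavy chain, Slc3a1, known from kidney, fell from 20.3 ± 2.15 to 6.06 ± 1.91 CPM, by 1.75 ± 0.55 (adjusted p = 0.0291). That fall was lost without either P12 sample and without E16 replicate 1 or 3 (adjusted p from 0.0712 to 0.217), and 26.4% of its exon bases are shared with Prepl on the opposite strand.

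Slc7a5, the light chain of the large neutral amino acid exchanger at the blood-brain barrier, had 37.2, 39.1 and 28.8 CPM at E16 and 1085 and 566 at P12. It had 266, 412 and 325 CPM at P80 and 203, 176, 240 and 202 at P310. The 4 ages did not overlap. The gene rose by 4.56 ± 0.30 from E16 to P12 (adjusted p = 4.84e-08) and fell by 1.30 ± 0.27 from P12 to P80 (adjusted p = 0.0272). The further change to P310 was -0.70 ± 0.23 and was not called (adjusted p = 0.871).

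Slc7a11 (xCT), the light chain that takes up cystine for glutathione and releases glutamate, had 118, 122 and 176 CPM at E16, 64.9 and 77.8 at P12, 36.9, 80.7 and 34.1 at P80, and 65.6, 23.8, 25.8 and 26.4 at P310. The E16 samples lay above all others. The change from E16 to P12 was -0.96 ± 0.47 and not called (adjusted p = 0.149), though it was called under 3 alternatives, and the gene was called over all ages (adjusted p = 0.0047). Per kb, Slc7a11 made up 26.4% to 38.6% of the summed light chain level at E16 and 1.39% to 4.78% in the postnatal samples. The share of Slc7a5 was 23.7% to 33.3% at E16, 75.0% to 87.0% at P12, 74.1% to 77.3% at P80 and 55.6% to 74.5% at P310. Relative to the heavy chain Slc3a2, Slc7a5 stood per kb at 0.503 to 0.791 at E16, 2.79 to 3.26 at P12, 1.76 to 2.73 at P80 and 1.37 to 1.56 at P310.

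Of the remaining light chains, Slc7a8, which also carries large neutral amino acids, rose from 14.7 ± 1.98 to 82.2 ± 17.8 CPM (2.48 ± 0.54, adjusted p = 0.00352) and had 24.0 ± 17.6 at P80 and 18.8 ± 9.89 at P310. Slc7a10, the astrocytic exchanger of serine and glycine, rose from 5.38 ± 0.956 to 41.2 ± 10.3 CPM (2.94 ± 0.46, adjusted p = 2.14e-04) and had 30.6 ± 11.3 and 25.7 ± 14.3 at the adult ages. Exons of Slc7a10 share 17.9% of their bases with Lrp3 on the opposite strand. Slc7a6, which exchanges arginine for glutamine, fell against the others from 25.8 ± 2.75 to 8.80 ± 0.214 CPM (-1.55 ± 0.39, adjusted p = 0.00858), and that call ended without either P12 sample (adjusted p = 0.0667 and 0.066). Slc7a7 ranged from 3.08 to 11.1 CPM with no call. Slc7a13 ranged from 0.504 to 13.7 CPM and was called over all ages only (adjusted p = 0.0403). Slc7a9, Slc7a12 and Slc7a15 did not pass the filter, with no count of Slc7a12 in any sample.

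Of the 5 cationic carriers, 2 rose from E16 to P12. Slc7a1, the main arginine and lysine carrier of most cells, had 40.9, 35.9 and 31.8 CPM at E16, 754 and 431 at P12, 210, 199 and 224 at P80, and 136, 95.3, 181 and 172 at P310. P12 lay above all other ages, and the adult samples lay between P12 and E16. The rise was 4.03 ± 0.30 (adjusted p = 1.53e-07) and the fall to P80 was 1.49 ± 0.28 (adjusted p = 0.0137). Slc7a2, which carries the same amino acids and is induced in immune cells, rose from 9.52 ± 2.49 to 52.9 ± 16.1 CPM (2.47 ± 0.42, adjusted p = 4.02e-04) and had 68.9 ± 31.8 CPM at P80. Slc7a3 reached at most 4.09 CPM, and Slc7a4 lay between 1.95 and 6.76, neither called. Slc7a14 was called over all ages only (adjusted p = 0.0365), with 8.7 ± 0.772 CPM at E16 and 33.3 ± 23.6 at P80.

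Of the 3 carriers of system A, which loads cells with small neutral amino acids such as glutamine, 1 fell. Slc38a1, known from neurons and progenitors, fell from 251 ± 50.2 CPM (n = 3, lowest 213) at E16 to 151 and 93.5 at P12, with 105, 66.3 and 133 at P80 and 71.3, 37.9, 76.4 and 77.8 at P310. The E16 samples lay above all later ones. The fall of 1.04 ± 0.36 was close to the threshold (adjusted p = 0.0419) and was lost under 8 of 23 alternatives, including without E16 replicate 1 (-0.87, adjusted p = 0.133) and without P12 replicate 2-3 (-0.73, adjusted p = 0.319). Over all ages Slc38a1 was called (adjusted p = 4.96e-04).

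Slc38a2, which cells induce when amino acids are short, had 169, 152 and 146 CPM at E16, 349 and 327 at P12, 509, 89.9 and 521 at P80, and 97.3, 67.7, 180 and 257 at P310. The P12 samples lay above E16, but the change of 1.12 ± 0.66 was not called (adjusted p = 0.244), though it was called with no low-count filter and with only the 2 ages compared (adjusted p = 0.00191 and 0.00175), and the adult samples spread over both. The low P80 sample, replicate 2, had 23.5% mitochondrial counts, against 12.8% and 19.2% in the other P80 samples. The lowest P310 samples, replicates 1 and 2, had 34.4% and 29.1%, against 18.3% and 24.5%. The part of RNA quality or preparation in the level of Slc38a2 was not tested. Slc38a2 lies 44.5 kb from Slc38a1 (chr15:96571418-96642913) and 295 kb from Slc38a4, which had 1.53 to 5.43 CPM at E16 and no count at P310 and was called over all ages only (adjusted p = 0.00578). The per kb ratio of Slc38a1 to Slc38a2 was 0.746 to 0.936 at E16 and 0.106 to 0.378 in every postnatal sample.

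Both system N carriers, which release or take up glutamine in glia and at the blood-brain barrier, rose. Slc38a3 had 9.14, 10.1 and 8.02 CPM at E16, 198 and 165 at P12, 119, 119 and 148 at P80, and 149, 74.8, 98.5 and 113 at P310. It rose by 4.32 ± 0.28 (adjusted p = 4.81e-08), and no postnatal sample came near the E16 level. Slc38a5 had 0.216, 0.422 and 0.649 CPM at E16, 115 and 62.8 at P12, 32.9, 41.6 and 30.1 at P80, and 25.1, 22.6, 38.1 and 22.2 at P310. Its rise of 7.64 ± 0.47 (adjusted p = 2.6e-08) was the largest of the 46 tested members, P12 lay above all adult samples, and the step to P80 was -1.35 ± 0.36 and not called (adjusted p = 0.0954).

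Of the remaining Slc38 genes, Slc38a11 rose from 0.201 ± 0.298 to 6.89 ± 2.13 CPM (5.005 ± 0.85, adjusted p = 4.46e-04). Slc38a10 (67.8 to 107 CPM), Slc38a6 (67.8 to 141), Slc38a7 (10.4 to 17.7) and Slc38a9, the arginine sensor of the lysosome (7.52 to 21.8), were not called at any step. Slc38a8 had at most 0.121 CPM.

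**Figure D3:**
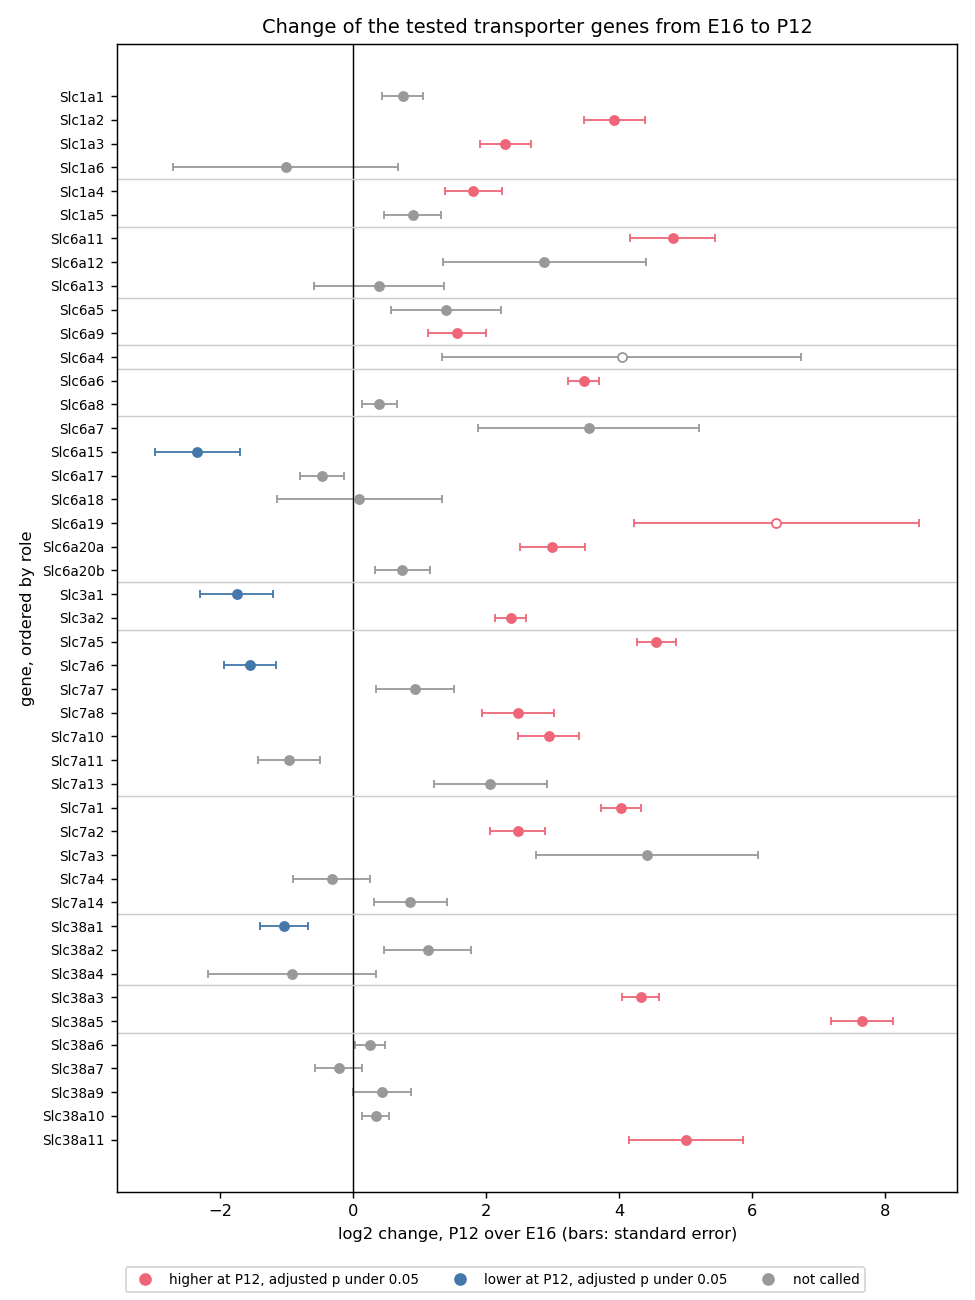
Log2 change from E16 to P12 (x axis) with its standard error (bars) for the transporter genes that passed the low-count filter and are reported here, ordered by role (y axis, grey lines part the roles). Red points are the 17 genes called higher, blue points the 4 called lower and grey points those not called; hollow points had no count at E16, so that their fitted value is no bound.

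Several of the genes that rose, namely Slc7a5, Slc3a2, Slc7a1, Slc6a6, Slc38a3 and Slc38a5, are known from brain endothelium, and Slc1a2, Slc1a3, Slc6a11 and Slc7a10 from astrocytes. Markers of both cell types rose in the same step, from 44.2 to 68.6 to 3854 to 5017 CPM for the endothelial and from 204 to 215 to 1294 to 1518 CPM for the astrocyte sum. How much of the transporter change came with those cells was not tested.

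From P12 to P80 only falls were called among the transporters. They were Slc1a4, Slc7a1 and Slc7a5, with the values given above, 3 of 46 genes and none higher, beside 1.02% of all genes tested called lower and 0.406% called higher. The median change was -0.28 over the 46 members and -0.03 over all genes. Without P12 replicate 1, which had the highest level of each of the 3 genes, none was called, at -2.28, -1.04 and -0.77 (adjusted p = 0.113, 0.345 and 0.685). Slc7a1 also lost its call without any 1 of the P80 replicates (adjusted p = 0.0576 to 0.0705), and Slc7a5 without P80 replicate 1 or 3 (adjusted p = 0.122 and 0.147). With only the 2 ages in the fit, Slc1a4 and Slc7a5 lost theirs (adjusted p = 0.0811 and 0.103). The endothelial marker sum ranged from 3854 to 5017 CPM at P12 and from 4435 to 5430 at P80, with 1 of 10 markers called lower and none higher. Flt1 made up 1048 ± 253 CPM of this at P12 and 2304 ± 266 at P80. Without Flt1, the other 9 endothelial markers summed to 2985 to 3790 CPM at P12 and to 2329 to 2824 at P80, without overlap. These 9 include Kdr, the 1 marker called lower, with 941 ± 243 CPM at P12 and 317 ± 6.69 at P80. The median log2 change over the 10 endothelial markers was 0.01. The astrocyte sum went from 1294 to 1518 to 837 to 1127 CPM, with 1 of 10 called lower. The part of either cell type in the 3 falls was not tested.

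From P80 to P310 no transporter was called, as 0% of all genes tested were called in either direction. At an unadjusted p under 0.05 lay 8 of the 46 members and 1162 of all 21170 genes. Where nothing changes, that cut still passes a share of about 0.05 of the genes. The 8 members are therefore listed as a description and not as changes. Their estimate was positive for Slc6a6 and negative for Slc1a3, Slc1a4, Slc7a1, Slc7a5, Slc38a1, Slc38a2 and Slc38a4. The median change was -0.24 over the 46 members and 0.03 over all genes. DESeq2 and limma-voom likewise called none of the members. For Slc6a6, the member with the highest mean at both ages, the change was 0.45, with an approximate 95% interval of 0.08 to 0.83. It was -0.70 for Slc7a5, with an interval of -1.15 to -0.25, and -0.49 for Slc1a2, with an interval of -1.20 to 0.23. These intervals were taken from the SE with a normal distribution, so they are somewhat narrower than the quasi-likelihood test would give. They are not adjusted for the number of genes. Over all 4 ages together 25 of the 46 members were called, 54.4%, beside 37.1% of all genes tested. Of these, 6 were called in no single step (Slc1a1, Slc6a4, Slc7a11, Slc7a13, Slc7a14 and Slc38a4), while Slc6a9 and Slc6a19 were called in a step but not over all ages.

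**Figure D4:**
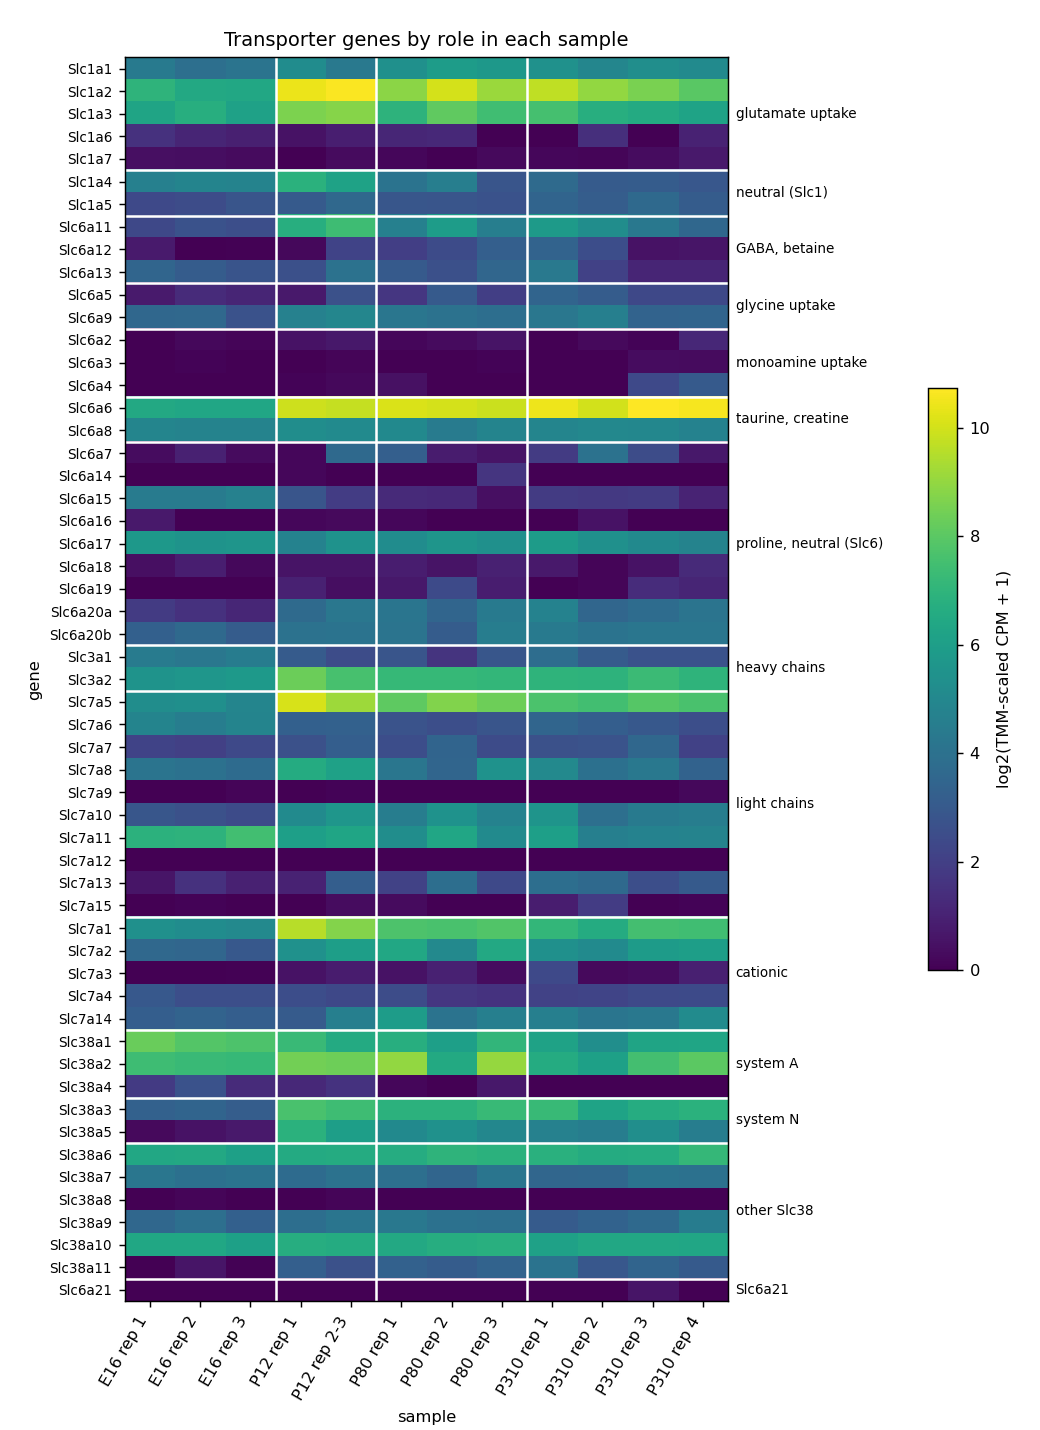
Level of the transporter genes reported here (rows, grouped by role) in the 12 samples (columns, grouped by age) as log2(TMM-scaled CPM + 1), from dark (0) to yellow (highest). The switch between E16 and P12 is visible for Slc1a2, Slc6a6, Slc7a5, Slc7a1 and Slc38a5, and the monoamine rows stay dark apart from Slc6a4 in P310 replicates 3 and 4.

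Around these carriers, 59 genes of 6 related lists were tested, of which 8 rose and 8 fell from E16 to P12, 13.6% each, near the 16.7% and 10.5% of all genes, so the counts per list are given as a description. Of 5 tested vesicular transmitter carriers, none rose and 1 fell from E16 to P12, Slc17a6 of glutamatergic neurons, from 44.9 ± 7.2 to 1.81 ± 1.58 CPM (-4.58 ± 1.04, adjusted p = 0.00496). Of 10 enzymes of glutamate, glutamine and GABA, 2 rose and 3 fell. Glul, which makes glutamine in astrocytes, rose from 80.6 ± 5.01 to 634 ± 60.6 CPM (2.98 ± 0.29, adjusted p = 2.11e-06), and Glud1 rose by 0.95 ± 0.20 (adjusted p = 0.00253). The GABA-making enzymes Gad1 and Gad2 fell by 2.1 ± 0.67 and 2.68 ± 0.66 (adjusted p = 0.0297 and 0.00684), as did Got1 (-1.31 ± 0.38, adjusted p = 0.0174).

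Of 12 genes of the amino acid stress response and serine synthesis, 2 rose and 2 fell in that step. The transcription factor Atf4, which acts through C/EBP-ATF elements, went from 176 ± 73.0 to 68.5 ± 14.6 CPM (-1.37 ± 0.33, adjusted p = 0.00613), and the mitochondrial serine enzyme Shmt2 from 58.3 ± 2.82 to 23.5 ± 2.64 (adjusted p = 0.00753). Cebpb rose from 3.92 ± 1.28 to 11.5 ± 1.58 CPM and again to 39.1 ± 9.76 at P80 (1.54 and 1.77, adjusted p = 0.00311 and 0.0198), and the stress protein gene Nupr1 rose from 1.6 ± 0.313 to 15.04 ± 0.165 CPM (adjusted p = 8.05e-06). The second rise of Cebpb was the only call of these pathway lists from P12 to P80, and none was called from P80 to P310.

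Of 16 genes of amino acid sensing at the lysosome, 1 rose and 2 fell from E16 to P12. Castor1, an arginine sensor, rose from 0.402 ± 0.348 to 18.7 ± 2.37 CPM (5.55 ± 0.61, adjusted p = 7.12e-06), while its relative Castor2 fell from 94.7 ± 21.03 to 29.8 ± 3.04 (-1.67 ± 0.32, adjusted p = 0.00106) and Rragd by 1.30 ± 0.45 (adjusted p = 0.0441). Among 9 tested amino acid carriers of other families, 3 rose and none fell, namely Slc36a1 of the lysosome (1.41 ± 0.30, adjusted p = 0.00232), Slc43a2 (2.13 ± 0.30, adjusted p = 9.73e-05) and Slc43a3 (2.93 ± 0.64, adjusted p = 0.00309). None of 7 genes of glutathione synthesis and use was called in any step.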

How the data were processed

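The authors deposited 1 table of raw gene counts per library, from featureCounts 1.5.0-p1 over the exons in Ensembl GRCm38 release 92, per the file headers. Reads were trimmed with Trim Galore and aligned with TopHat2 2.1.1, per the submitters' processing notes. The kit kept strand, per the labels, but the headers give no strand option and count reads that overlap several genes (at least 10 bases) or map to several places, so overlapping genes and close copies share counts. Symbols came from GENCODE M21, and families Slc1, Slc3, Slc6, Slc7 and Slc38 were taken by symbol. The members, lists and tests were chosen with earlier results of these data known.

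P12 replicates 2 and 3 (chi-square per degree of freedom 2.34, against 16.6 to 179 for the other 14 pairs of libraries of 1 age) were counted as 1 sample. Genes kept by filterByExpr were scaled by TMM and fitted with a mean per age by the robust quasi-likelihood test of edgeR 4.0.16 under R 4.3.3, with Benjamini-Hochberg adjustment over all 21170 genes. The fit gave a common biological coefficient of variation of 0.513. The SE of a change was derived from its F value. The values of 1 member are not reported here, though counts and sums include it. The members described sample by sample are 10 chosen carriers without that member, and, per step, the 6 called members with the highest mean CPM, and further ones were added after their values were seen. Alternatives used limma 3.58.1 and DESeq2 1.42.0. The procedure was tested on simulated data. Summaries used Python 3.11.15.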

Additional observations from a re-analysis of the deposited data

Results flagged for a closer look

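Among the 49 members with counts in at least 2 of the 4 P310 samples, 5 had 1 sample set apart from the other 3 (Dixon's test at 95%), where chance gives about 1 in 20. The samples set apart by a high value were replicate 3 for Slc3a2 (158.4 CPM), replicate 1 for Slc6a13 (19.27 CPM) and Slc7a11 (65.59 CPM), replicate 2 for Slc6a16 (0.4399 CPM), replicate 3 for Slc6a21 (0.5349 CPM) and replicate 4 for Slc7a9 (0.17 CPM). Low values set apart replicate 2 for Slc38a1 (37.94 CPM) and replicate 4 for Slc6a15 (1.105 CPM). Slc6a16, Slc6a21 and Slc7a9 are further members with counts in 1 P310 sample only, which sets that sample apart by construction.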

How the results depend on the processing

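The calls of 27 member changes were repeated under up to 23 alternatives each, 620 in all. Of these, 565 kept direction and call, 39 lost the call, 16 gained it and 0 reversed, and 14 changes held throughout. The count of members higher at P12 than at E16 ranged from 15 to 19 when a replicate was left out, and the count lower from 0 to 4, with 2 each without E16 replicate 1, E16 replicate 3 or P12 replicate 1 and 0 without P12 replicate 2-3. From P12 to P80, the count lower was 9 with no low-count filter, 5 with DESeq2, 7 with limma-voom and 1 with only the 2 ages compared, and ranged from 0 (without P12 replicate 1) to 4 when a replicate was left out. From P80 to P310, 1 member was lower with no low-count filter. The count over all ages ranged from 22 to 27 when a replicate was left out. Leaving out the 2 libraries highest in mitochondrial counts, a choice made after seeing the data, gave 19 higher and 4 lower from E16 to P12. A fit with the replicate block, with P12 replicates 2 and 3 apart, gave 18 higher and 4 lower from E16 to P12 and 3 lower from P12 to P80, but Slc7a5 (P12 to P80) and Slc6a19 (E16 to P12) lost their calls in it (adjusted p = 0.0841 and 0.055). Same-numbered samples did not deviate together (correlations of -0.234 to 0.209, over 0.1 in 3 of 18 pairs), so the numbers do not pair the samples. With 2 samples at P12, both steps that include that age rest on few samples. With no low-count filter 55 of the 56 members were tested, with 22 higher and 5 lower from E16 to P12.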
